A study of Canis lupus familiaris with 12 samples.

Results

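The Rab, Ral and Arf GTPases that direct membrane traffic were compared between Madin-Darby canine kidney (MDCK) cells grown as 3-dimensional cysts and as 2-dimensional flat sheets. A probe set was taken as a member when its annotation named a single gene, and that gene was a numbered RAB gene with at most 1 letter after the number, 1 of the genes ARF1 to ARF6, or RALA or RALB. This gave 109 probe sets of the 42924 on the array that are not controls, and they stood for 61 of 15115 genes: 55 Rab genes, 2 Ral genes and 4 Arf genes. Where a gene had several probe sets, the one with the highest mean over the 12 arrays represented it. The rule names genes by symbol alone and uses no expression value. Of 70 symbols that had been listed by role, 9 had no probe set naming them alone (RAB21, RAB33B, RAB39B, RAB41, RAB43, RAB6C, RAB40A, ARF1 and ARF2) and were not analysed here.

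Both groups were the MDCK II tet-off line, an established epithelial line from dog kidney tubule, kept in medium with G418. The 3D group held 6 arrays of cells grown for 8 days in 3-dimensional type I collagen, which formed multicellular cysts. The 2D group, which the study used as its control, held 6 arrays of cells grown for 8 days on 2-dimensional type I collagen, which formed flat sheets. Each array carried RNA of 4 samples pooled before labelling, so p-values measure the spread between pools, which may be smaller than the spread between single cultures. Bulk RNA was measured, so fewer cells with a transcript and less of it per cell cannot be told apart.

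Rab, Ral and Arf proteins are small GTPases that switch between a GTP-bound form, which sits on a membrane and recruits effectors, and a GDP-bound form. Exchange factors load GTP, GTPase-activating proteins end the signal, and each family member marks its own compartments. In polarised kidney epithelium they sort cargo to the apical or basolateral surface, and in cysts RAB11A, RAB8A and their partners carry apical proteins such as podocalyxin to the site where the lumen opens. The binding partner shared by RALA and RALB is the exocyst, the complex that tethers secretory vesicles at the plasma membrane.

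The values are array intensities as deposited, and all levels below are log2(intensity + 1). Array medians lay between 89.9 and 93.7 on the intensity scale. The 9 measured markers of tubule epithelium, EPCAM, KRT8, KRT18 and CDH16 among them, were above the level of bacterial control probe sets on all 12 arrays. Of these 9, 3 rose in 3D (CDH1 by 1.02, KRT8 by 0.64 and KRT18 by 0.18) and 4 fell (PAX2, CDH16, TJP1 and OCLN), by 0.17 to 0.24. That control level, the 95th percentile of 59 control probe sets, averaged 5.71 over the arrays. Of markers of other cells, 1 rose in 3D (CD14 of the leukocyte list) and 8 fell. The fallen ones were 2 of 7 fibroblast, 4 of 7 leukocyte and 2 of 5 endothelial markers. PECAM1 and COL1A2 lay at the control level on all 12 arrays. Above it on all 12 lay 2 of 7 fibroblast, 5 of 7 leukocyte and 3 of 5 endothelial markers. CD3E, at 7.08 in 3D and 7.27 in 2D, stood higher than PAX2, at 6.28 and 6.45. The control level thus did not separate tubule markers from markers of other cells. The log2 ratio of 5′ to 3′ probe sets for actin and GAPDH, a sign of RNA integrity, averaged −0.54 ± 0.17 in 3D and −0.91 ± 0.14 in 2D (SD over 6 arrays each), a difference larger than the spread between arrays (exact two-sided permutation test, p = 0.00866). The value of 3D replicate 2, −0.88, fell within the 2D range. The first principal component carried 66.0% of the variance, and on the second, with 9.49%, 3D replicate 2 and 2D replicate 6 lay farthest out. The part of the RNA ratio in the results was not tested as a cause, and the values with it as a covariate are given for genes whose call it ends or whose passing value it moves by over 1.5 times.

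Of the 61 genes, 25 passed the test (limma, Benjamini-Hochberg adjusted p under 0.05 over all 42924 probe sets that are not controls), a share of 41%. Over all 15115 genes the share was 42.7%. In direction, 19 of the 61 rose in 3D cysts (31.1%) and 6 fell (9.84%), against 19.8% and 22.9% over all genes. Centring each array on its median turned the balance over all genes to 3205 raised and 2680 lowered, with 20 members raised and 5 lowered. The median log2 fold change was 0.05 over the members and −0.05 over all genes. Most changes were small: 5 members, or 8.2%, passed with a log2 fold change of at least 0.5, a level that 7.75% of all genes reached in either direction. Those 5 were RALA, RAB27A, ARF6, RALB and RAB25, all higher in 3D, and RALA was the only one past 2-fold. The 6 values of 3D and the 6 of 2D did not overlap for 14 members, which is 23%, against 22.6% of all genes. The 36 members that did not pass had log2 fold changes between −0.20 and 0.56.

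**Figure D1:**
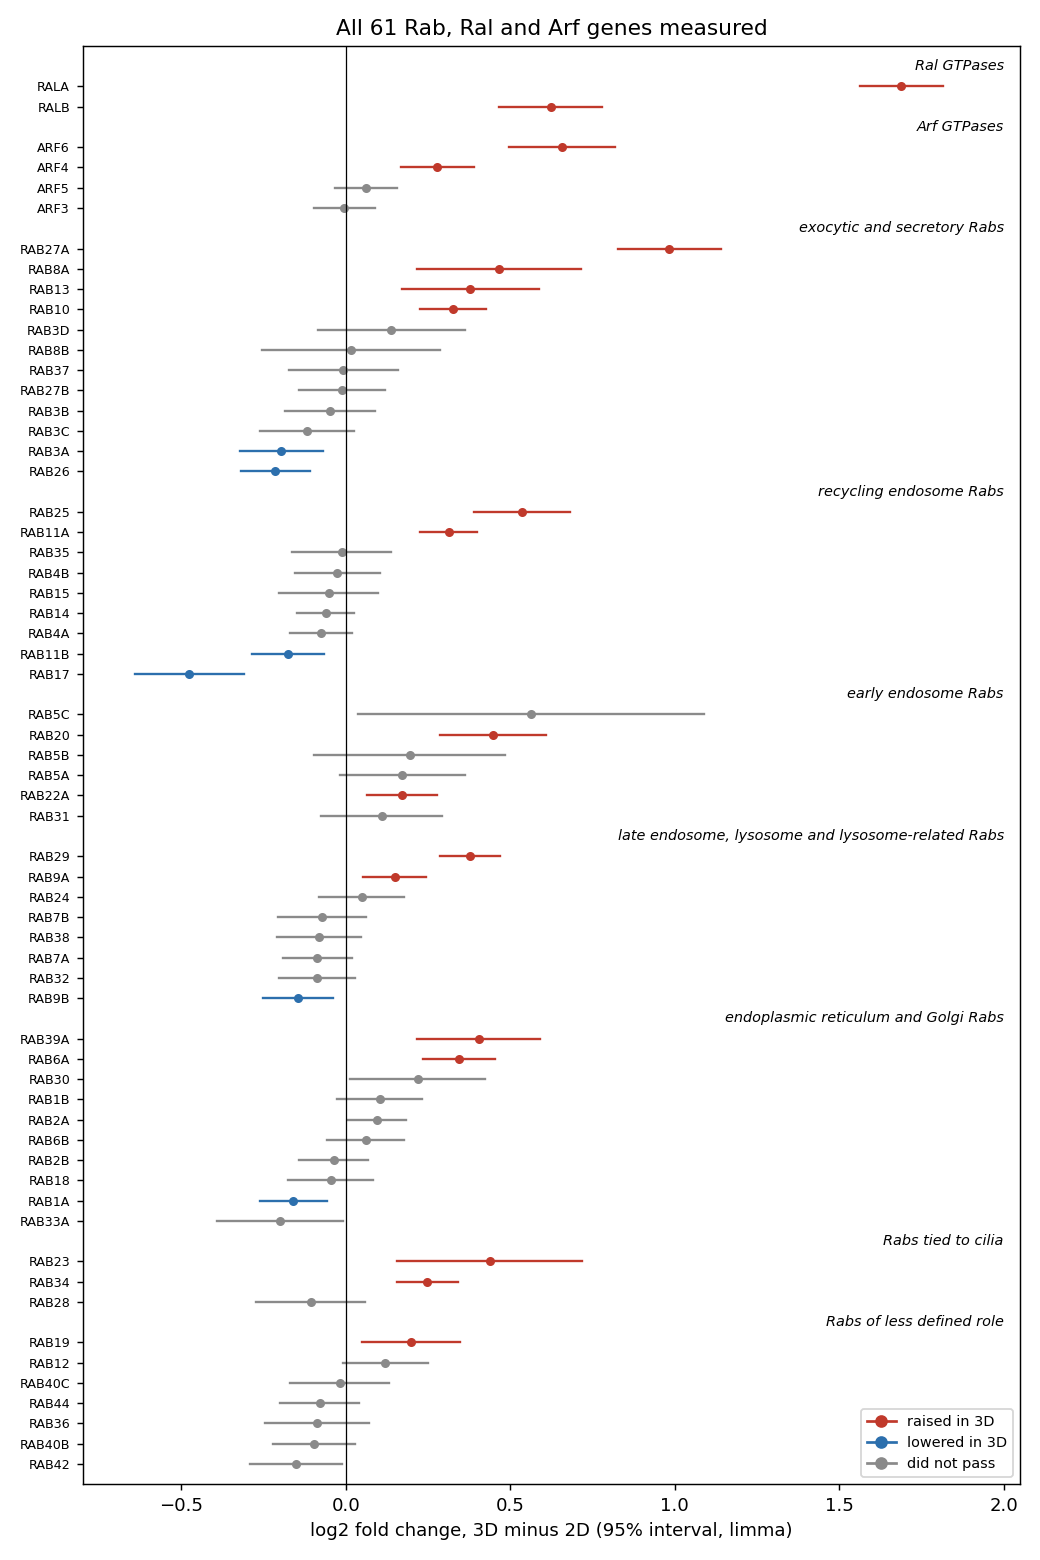
Log2 fold change, 3D over 2D, of all 61 members grouped by role, with points for the limma estimate and bars for its 95% interval (6 arrays per group). Red points rose, blue points fell and grey points did not pass at an adjusted p under 0.05; RALA stands at 1.69, the 4 next highest that passed lie between 0.54 and 0.98, and the lowest is RAB17 at −0.48.

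Both Ral genes rose in 3D cysts. RALA, which promotes exocyst-dependent delivery to the basolateral surface, had log2 intensities of 10.76, 10.68, 10.97, 11.04, 10.87 and 10.88 in 3D, against 9.12, 9.18, 9.17, 9.12, 9.25 and 9.22 in 2D. Every 3D array lay more than 1 log2 unit above every 2D array. The means were 10.87 ± 0.13 in 3D and 9.18 ± 0.05 in 2D (SD over 6 arrays each), a 3.22-fold difference (log2 fold change 1.69, SE 0.06, limma adjusted p = 4.16e-12). A second RALA probe set averaged 9.59 ± 0.14 in 3D and 7.92 ± 0.13 in 2D, a log2 fold change of 1.67 (SE 0.07). RALB, known also for activating the kinase TBK1 in innate immune signalling, had 9.99, 9.61, 10.05, 9.95, 9.98 and 10.05 in 3D, against 9.32, 9.30, 9.51, 9.25, 9.23 and 9.29 in 2D. The groups did not overlap, although the lowest 3D array, replicate 2, and the highest 2D array, replicate 3, came near each other. RALB was 1.54-fold higher in 3D (log2 fold change 0.62, SE 0.07, adjusted p = 5.55e-06), and fitting the RNA ratio as a covariate gave a log2 fold change of 0.33 (adjusted p = 0.00468).

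Of the 4 Arf genes measured, 2 rose and the other 2 did not pass. ARF6, the Arf of the plasma membrane and of endocytic recycling, had log2 intensities of 10.86, 10.75, 10.82, 10.81, 10.63 and 10.70 in 3D, against 10.24, 10.35, 10.19, 10.02, 9.87 and 9.95 in 2D. All 3D arrays lay above all 2D arrays. The means were 10.76 ± 0.09 in 3D and 10.10 ± 0.18 in 2D (SD over 6 arrays each), 1.58-fold apart (log2 fold change 0.66, SE 0.08, adjusted p = 4.23e-06), and the second ARF6 probe set rose by 0.39. ARF4, a Golgi Arf that also sorts cargo to cilia, rose by 0.28 (SE 0.05, adjusted p = 0.000579), with 3D replicate 2 at 11.83, below the highest 2D array at 11.84. Beside the RNA ratio as covariate ARF4 no longer passed (0.18, adjusted p = 0.140). ARF5, another Golgi Arf, differed by 0.06 (95% interval −0.03 to 0.15, adjusted p = 0.279). The representing probe set of ARF3, an Arf of the trans-Golgi network, differed by −0.01 (adjusted p = 0.936), while its other probe sets rose by 0.30 and 0.29.

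Among the 12 Rabs of exocytosis and regulated secretion, 4 rose, 2 fell and 6 did not pass. RAB27A, which docks secretory granules and lysosome-related organelles at the plasma membrane, led the Rab genes. Its log2 intensities were 7.26, 6.84, 7.26, 7.14, 7.10 and 7.29 in 3D, against 6.17, 6.35, 6.07, 6.06, 6.15 and 6.20 in 2D. The 2 groups lay well apart, with 3D replicate 2 the lowest of its group. The means were 7.15 ± 0.17 in 3D and 6.17 ± 0.10 in 2D (SD over 6 arrays each), 1.98-fold apart (log2 fold change 0.98, SE 0.07, adjusted p = 3.29e-08). RAB27B, its close relative in granule secretion, lay at the control level on all 12 arrays, with lowest, median and highest values of 5.06, 5.18 and 5.22 in 3D, against 5.02, 5.15 and 5.34 in 2D.

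RAB10, which acts in basolateral sorting in MDCK cells, also rose. Its lowest, median and highest values were 11.68, 11.71 and 11.79 in 3D, against 11.30, 11.39 and 11.49 in 2D. No 3D array fell into the 2D range, and the log2 fold change was 0.33 (SE 0.05, adjusted p = 5.60e-05), or 0.21 beside the RNA ratio as covariate (adjusted p = 0.0463). RAB8A, which carries cargo to the apical surface and the cilium, ran at 7.04, 7.54 and 7.59 in 3D, against 6.58, 6.94 and 7.35 in 2D. These groups overlapped through 3D replicates 2 and 5 and 2D replicates 2 and 3. RAB8A rose by 0.47 (SE 0.12, adjusted p = 0.00541), but the call did not hold once the RNA ratio was a covariate (−0.03, adjusted p = 0.877). The other RAB8A probe set lay at the control level on all 12 arrays.

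RAB8B, the close relative of RAB8A, ran at 6.43, 6.91 and 7.21 in 3D, against 6.45, 6.87 and 7.25 in 2D. The 2 ranges nearly coincided, with a difference of 0.01 (95% interval −0.26 to 0.28, adjusted p = 0.935), although RAB8B was lower in 3D once the RNA ratio was a covariate (−0.56, adjusted p = 0.000500). RAB13, which delivers junction proteins to the cell surface, rose by 0.38 (SE 0.10, adjusted p = 0.00680), and did not pass with the covariate (0.37, adjusted p = 0.143). RAB3A, a Rab of regulated exocytosis, fell by 0.20 (adjusted p = 0.0162), and RAB26, known from granules of exocrine cells, fell by 0.21 (adjusted p = 0.00327). The 6 RAB26 values did not overlap between the groups, but its second probe set lay at the control level on all 12 arrays, and with the covariate neither gene passed (RAB3A −0.07, adjusted p = 0.658; RAB26 −0.18, adjusted p = 0.146). RAB3B, which acts in apical transcytosis, ran at 5.56, 5.77 and 5.89 in 3D, against 5.70, 5.77 and 5.97 in 2D, a difference of −0.05 (adjusted p = 0.575) with overlapping groups. RAB3D and RAB37 did not pass either, at 0.14 and −0.01, and RAB3C lay at the control level on all 12 arrays. Another RAB37 probe set passed as lower in 3D but lay at the control level on all 12 arrays.

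**Figure D2:**
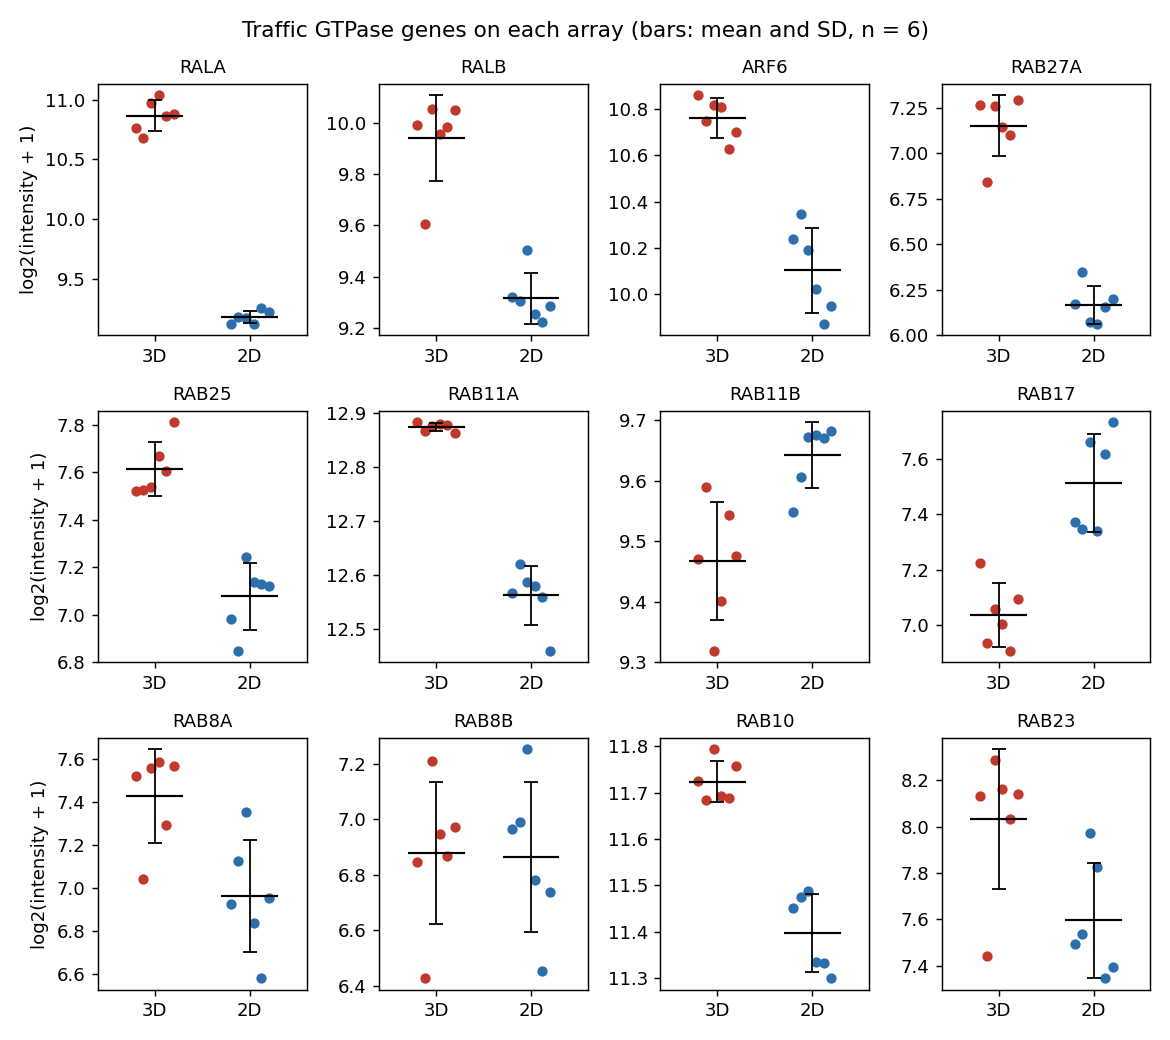
Log2(intensity + 1) on each array for 12 members, 1 per panel, with 3D (red, left) and 2D (blue, right), the mean as a line and the SD as bars (n = 6 each). RALA, RALB, ARF6, RAB27A, RAB25, RAB11A and RAB10 lie wholly higher in 3D and RAB17 wholly lower, while RAB8A, RAB11B and RAB23 overlap between the groups and the ranges of RAB8B nearly coincide.

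The recycling endosome Rabs split in direction: of 9 measured, 2 rose, 2 fell and 5 did not pass. RAB25, an epithelial member of the RAB11 family that acts in apical recycling and transcytosis, had log2 intensities of 7.52, 7.53, 7.54, 7.67, 7.61 and 7.81 in 3D, against 6.98, 6.85, 7.24, 7.14, 7.13 and 7.12 in 2D. The groups did not overlap, and RAB25 was 1.45-fold higher in 3D (7.61 ± 0.11 in 3D and 7.08 ± 0.14 in 2D, log2 fold change 0.54, SE 0.07, adjusted p = 1.49e-05). RAB11A, which marks the apical recycling endosome, ran at 12.86, 12.88 and 12.88 in 3D, against 12.46, 12.57 and 12.62 in 2D. The 3D arrays were nearly identical and lay above all 2D arrays, with a log2 fold change of 0.31 (SE 0.04, adjusted p = 1.64e-05). The second RAB11A probe set rose by 0.49 (SE 0.06).

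The third member of that family, RAB11B, went the other way. RAB11B ran at 9.32, 9.47 and 9.59 in 3D, against 9.55, 9.67 and 9.68 in 2D. The groups overlapped only through 3D replicate 2 and 2D replicate 1, and RAB11B fell by 0.18 (SE 0.05, adjusted p = 0.0135). The call did not hold with the RNA ratio as a covariate (−0.05, adjusted p = 0.704), and the second RAB11B probe set did not pass, at −0.08. RAB17, a Rab of polarised epithelia that acts in apical recycling and transcytosis, ran at 6.91, 7.03 and 7.23 in 3D, against 7.34, 7.49 and 7.73 in 2D. Every 3D array lay below every 2D array, and RAB17 fell by 0.48 (SE 0.08, adjusted p = 0.000175), the largest fall among the members. Its second probe set was also lower in 3D without passing (6.68 ± 0.10 in 3D and 6.81 ± 0.05 in 2D, −0.13, adjusted p = 0.0635), and the mean over both fell by 0.30.

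RAB14, which carries cargo between the trans-Golgi network and endosomes, ran at 11.24, 11.28 and 11.36 in 3D, against 11.31, 11.33 and 11.41 in 2D. RAB35, which acts in fast recycling and in orienting the apical surface of cysts, ran at 6.03, 6.09 and 6.17 in 3D, against 5.91, 6.05 and 6.37 in 2D. Both overlapped between the groups and neither passed, with differences of −0.06 for RAB14 (95% interval −0.15 to 0.03) and −0.01 for RAB35 (−0.16 to 0.14). The fast recycling Rabs RAB4A and RAB4B, at −0.08 and −0.03, and RAB15, at −0.05, did not pass. RAB15 lay at the control level on 5 of 6 3D arrays and all 6 2D arrays.

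Of the 6 early endosome Rabs, 2 rose and 4 did not pass, and all 6 had a positive log2 fold change. Over all 15115 genes 19.8% rose, and 5955 had a positive log2 fold change. With the RNA ratio held in the fit, RAB5A (−0.21), RAB5B (−0.26) and RAB31 (−0.16) were negative and RAB5C (1.00) was higher than without it, none of these 4 passing. RAB20, which acts in the maturation of phagosomes and macropinosomes, rose by 0.45 (SE 0.08, adjusted p = 0.000243) with no overlap between the groups (lowest 3D array 7.83, highest 2D array 7.74), and by 0.71 beside the RNA ratio as covariate. RAB22A, which acts in sorting from early endosomes to recycling, rose by 0.17 (adjusted p = 0.0139), or 0.11 without passing with the covariate (adjusted p = 0.380), and quantile normalization also ended the call (0.09, adjusted p = 0.142). RAB5A, the organiser of early endosome fusion, ran at 8.97, 9.48 and 9.52 in 3D, against 9.02, 9.23 and 9.40 in 2D. One array made the groups overlap: 3D replicate 2 held the lowest value while the other 5 lay at 9.41 or above. RAB5A differed by 0.17 over all arrays (adjusted p = 0.140), by 0.25 without 3D replicate 2 (adjusted p = 0.00459), and a second RAB5A probe set rose by 0.25. RAB5B differed by 0.19 (adjusted p = 0.269), and by 0.31 without 3D replicate 2 (adjusted p = 0.0335). RAB5C had the widest spread of the 3, with SDs of 0.60 in 3D and 0.45 in 2D. Its difference of 0.56 did not pass (SE 0.25, adjusted p = 0.0824), and passed at 0.68 without 3D replicate 5 (adjusted p = 0.0472) or without 2D replicate 4 (adjusted p = 0.0431). RAB31, a relative of RAB22A, did not pass at its brighter probe set (0.11, adjusted p = 0.328), while its dimmer one passed as higher in 3D. That probe set lay at the control level on all 6 2D arrays, so only a bound holds: at least 1.21-fold higher, its 3D mean being set against the control level of the 2D arrays.

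The 8 Rabs of late endosomes, lysosomes and lysosome-related organelles included 2 that rose, 1 that fell and 5 that did not pass. RAB29, which recruits the kinase LRRK2 to the Golgi and to lysosomes, rose by 0.38 (SE 0.04, adjusted p = 3.66e-06), with 3D arrays from 8.65 to 8.81 and 2D arrays from 8.32 to 8.41. RAB9A, which returns mannose 6-phosphate receptors from late endosomes to the Golgi, rose by 0.15 (adjusted p = 0.0172). Its relative RAB9B, close to the control level at 5.79 ± 0.07 in 3D and 5.94 ± 0.08 in 2D, fell by 0.15 (adjusted p = 0.0322). Neither of these passed with the RNA ratio as a covariate (RAB9A 0.14, adjusted p = 0.225; RAB9B −0.09, adjusted p = 0.503) or after quantile normalization (RAB9A 0.07, adjusted p = 0.269; RAB9B −0.07, adjusted p = 0.232). RAB9B also did not pass without 2D replicate 1 or without 3D replicate 3, 4 or 6. RAB7A, the main Rab of late endosomes and lysosomes, ran at 13.20, 13.22 and 13.25 in 3D, against 13.13, 13.33 and 13.42 in 2D. The 3D range lay within the 2D range, and RAB7A differed by −0.09 (95% interval −0.19 to 0.02, adjusted p = 0.173). RAB24, tied to autophagy, was at 0.05, and RAB32 and RAB38, which build melanosomes and related organelles, were at −0.09 and −0.08 without passing. RAB7B lay at the control level on all arrays.

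Of the 10 measured Rabs of the endoplasmic reticulum and Golgi, 2 rose, 1 fell and 7 did not pass. RAB6A, which acts in traffic at the Golgi, rose by 0.34 (SE 0.05, adjusted p = 7.56e-05) with no overlap (10.86 to 11.06 in 3D, 10.48 to 10.72 in 2D). Of its 6 probe sets 5 rose, and the other lay at the control level. RAB39A, listed here but known also from phagosomes and autophagy, rose by 0.40 (SE 0.09, adjusted p = 0.00196), and did not pass with the RNA ratio as a covariate (0.15, adjusted p = 0.445). RAB1A, which tethers vesicles on their way to the Golgi, fell by 0.16 (SE 0.05, adjusted p = 0.0150), with 12.83 ± 0.04 in 3D and 12.99 ± 0.09 in 2D. Its paralog RAB1B did not pass, at 0.10, while 1 of its 4 probe sets rose, by 0.25 (adjusted p = 0.0129). RAB2A, of the early secretory pathway, did not pass (0.10, adjusted p = 0.0776) although its 3D arrays, from 12.12 up, lay above all 2D arrays, up to 12.09. Its second probe set rose by 0.19 (adjusted p = 0.0113). RAB2B, RAB18 and RAB30, at −0.04, −0.05 and 0.22, and RAB33A, at −0.20 (0.04 with the covariate), did not pass. RAB6B lay at the control level.

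Of 3 Rabs tied to cilia, 2 rose and the other did not pass. RAB34, needed for an early step of cilium assembly, rose by 0.25 (SE 0.04, adjusted p = 0.000354) with no overlap between 3D (10.53 to 10.65) and 2D (10.24 to 10.40). RAB23, a negative regulator of Hedgehog signalling, rose by 0.44 (SE 0.13, adjusted p = 0.0165). Its 3D replicate 2, at 7.44, lay far below the other 3D arrays, from 8.03 to 8.29, and the fit that held the RNA ratio gave RAB23 a difference of −0.06 (adjusted p = 0.850). RAB28, which travels in cilia in the worm C. elegans, was at −0.11 (adjusted p = 0.283), while its second probe set fell by 0.26. Of the 7 Rabs of less defined role, RAB19 rose by 0.20 (adjusted p = 0.0343), and this call did not hold without 2D replicate 4, 5 or 6, without 3D replicate 1 or 6, or with the covariate (0.01, adjusted p = 0.971) or quantile normalization (0.13, adjusted p = 0.139). The other 6 were RAB12 at 0.12, RAB36, RAB40C, RAB42 and RAB44 between −0.15 and −0.02, and RAB40B at the control level, and none of these 6 passed. Of the 3 RAB12 probe sets 1 rose, by 0.20 (adjusted p = 0.0270).

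Changes were also compared within pairs of close relatives. The share that differs among pairs of other genes was not measured, and 42.7% of all genes passed singly. The counts below are therefore not shown to be particular to close relatives. For 24 measured pairs of 27 listed, the difference between both genes on each array was compared between the groups by an exact two-sided permutation test over all ways to split the 12 arrays into 6 and 6. After Benjamini-Hochberg adjustment over the 24 pairs, 11 passed. In 2 of these, RAB27A with RAB27B and RAB6A with RAB6B, the second gene lay at the control level on all 12 arrays, so its change was not measured and these pairs show no more than that RAB27A and RAB6A rose. Over the 21 pairs with neither gene at that level on all 12 arrays, 9 differed. In 5 of them the groups did not overlap and the p of 0.00216 (adjusted p = 0.00742 over the 24) was the smallest these permutations can give. RALA rose more than RALB by 1.07 on the log2 scale (SE 0.07), with a RALA minus RALB value of 0.93 ± 0.13 in 3D and −0.14 ± 0.12 in 2D. Within the RAB11 family the change of RAB11B stood below that of RAB25 by 0.71 (SE 0.08) and below that of RAB11A by 0.49 (SE 0.06).

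The RAB8A change exceeded that of RAB8B by 0.45 (SE 0.06), with a RAB8A minus RAB8B value of 0.55 ± 0.13 in 3D and 0.10 ± 0.09 in 2D, so these 2 genes, each overlapping between groups on its own, were separated as a pair. RAB9A exceeded RAB9B by 0.29 (SE 0.06). The other 4 pairs passed with overlapping groups: RAB1A fell below RAB1B by 0.26 and ARF4 exceeded ARF5 by 0.22 (adjusted p = 0.0289 each), RAB11A stood below RAB25 by 0.22 (adjusted p = 0.0312), and RAB2A exceeded RAB2B by 0.13 (adjusted p = 0.0331). RAB8A and RAB10 differed by 0.14 (adjusted p = 0.377), RAB5A and RAB5C by −0.39 (SE 0.36, adjusted p = 0.416) and RAB4A and RAB4B by −0.05 (adjusted p = 0.678). A pair that did not pass was not shown to change alike. The count of 11 became 7 without 3D replicate 6, and also 7 without probe sets that may detect related transcripts.

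**Figure D3:**
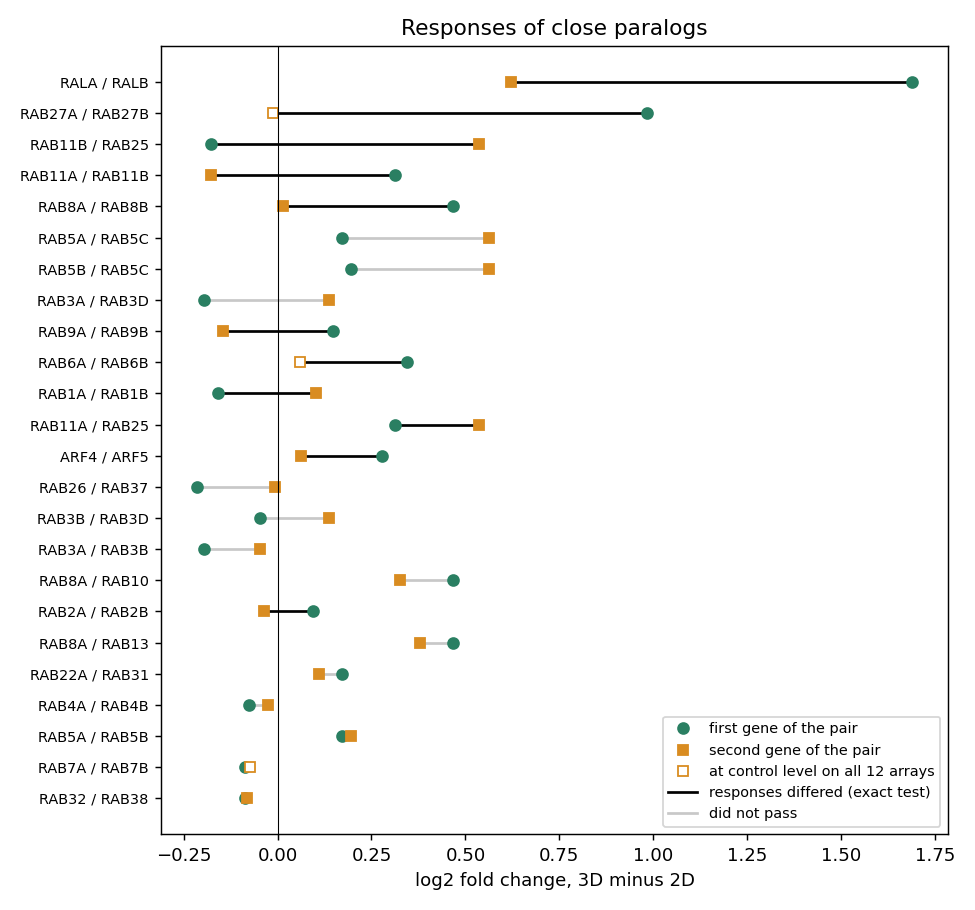
Log2 fold change, 3D over 2D, of both genes of 24 pairs of close relatives, with green circles for the first gene named and orange squares for the second. Open symbols mark genes at the control level on all 12 arrays, whose change was not measured. Black lines join the 11 pairs that passed and grey lines the others, and the widest gap is RALA with RALB, at 1.69 and 0.62.

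Several probe sets per gene gave a second reading for 34 of the 61 members, and 27 had 1 probe set. None of the 34 had probe sets that passed in opposite directions (limma at adjusted p under 0.05 over all probe sets), and at an unadjusted p under 0.05 the count was also 0. In 8 genes all probe sets passed one way, in 11 no probe set passed, and in 15 some passed and some did not, RAB17, RAB11B, ARF3, RAB5A and RAB31 among them. These counts were not made for other genes with several probe sets, so they are not shown to be particular to the members. Counted as probe sets, 38 of 109 rose (34.9%) and 8 fell (7.34%). Of all 42924 probe sets 38.7% passed, 16.7% as rises and 22% as falls. On this array a name ending in _s_at or _x_at marks a probe set that may also detect related transcripts. This held for 38 of the 109, among them those that represented RAB8A, RAB10, RAB11A, RAB17, RAB5A and ARF6, so transcripts of close relatives may add to these values.

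**Figure D4:**
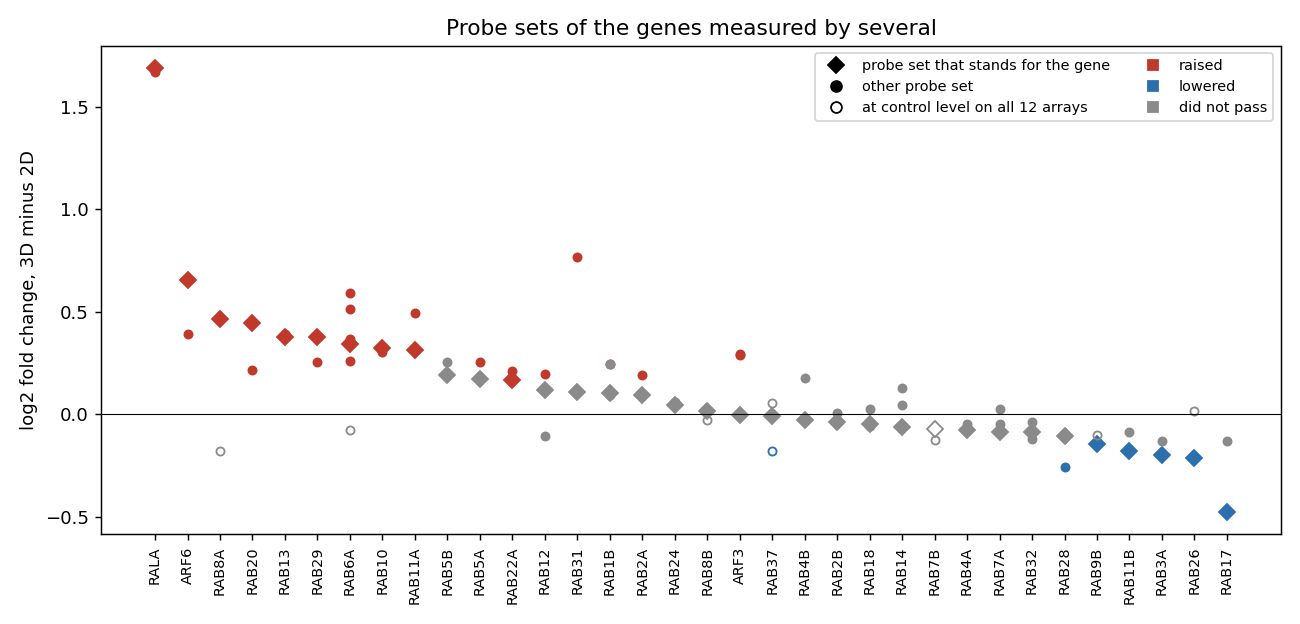
Log2 fold change, 3D over 2D, of every probe set of the 34 members with several probe sets, with diamonds for the one that represented the gene, circles for the others and open symbols for those at the control level on all 12 arrays. The 2 RALA probe sets lie together at 1.69 and 1.67, whereas those of RAB31 lie apart, the higher one being at the control level on all 6 2D arrays.

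The proteins that load, unload and read these GTPases were listed in 9 groups, with 207 genes measured of 238. Of these, 51 rose in 3D (24.6%) and 32 fell (15.5%), against 19.8% and 22.9% of all genes. Among 44 Rab effectors 13 rose and 2 fell. EEA1, the RAB5 effector that tethers early endosomes, rose by 1.00 (8.73 ± 0.13 in 3D and 7.73 ± 0.26 in 2D, SE 0.10, adjusted p = 9.94e-07). EHBP1, which links RAB8 and RAB10 to actin, rose by 0.74 (adjusted p = 3.87e-06). MICAL2, of a family of actin-oxidising enzymes, rose by 0.73 (adjusted p = 3.64e-08), although the mean over its probe sets differed by −0.06 (adjusted p = 0.276).

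Of 31 Rab exchange factors 7 rose and 7 fell, and the largest changes were rises of DENND2D by 0.79 and DENND2B by 0.75, both of the DENN domain family (0.51 and 0.28 as means over their probe sets), and of RAB3GAP2, a subunit of the RAB18 exchange factor, by 0.63. Of 35 TBC domain GTPase-activating proteins, which end Rab signals, 9 rose and 7 fell. TBC1D4, a GTPase-activating protein for RAB10 known from insulin-driven glucose transporter traffic, fell by 0.75 (adjusted p = 8.25e-05). It averaged 8.65 ± 0.28 in 3D and 9.40 ± 0.18 in 2D. TBC1D10C and SGSM3 rose by 0.60 and 0.53. Of 7 escort and dissociation-inhibitor genes 3 rose, CHML by 0.23, GDI2 by 0.22 and RABAC1 by 0.14, and 4 did not pass. With the RNA ratio as a covariate CHML and RABAC1 did not pass (0.09, adjusted p = 0.626; 0.06, adjusted p = 0.606). CHML also did not pass after quantile normalization (0.15, adjusted p = 0.0810), nor RABAC1 without 3D replicate 3 or 4 (0.13 each, adjusted p = 0.0526 and 0.0533).

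Of 14 Ral regulators and effectors 3 rose and 4 fell. RALGDS, an exchange factor that loads both Ral proteins downstream of Ras, averaged 7.56 ± 0.21 in 3D and 6.79 ± 0.19 in 2D and rose by 0.77 (SE 0.10, adjusted p = 1.27e-05). RGL2, a related exchange factor, rose by 0.36 (adjusted p = 0.00367). REPS2, an EH domain protein of endocytosis, averaged 7.001 ± 0.12 in 3D and 7.66 ± 0.17 in 2D and fell by 0.66 (SE 0.08, adjusted p = 5.26e-06).

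On the Arf side, 8 of 25 GTPase-activating proteins, which end Arf signals, rose and 2 fell. ASAP1, which acts at focal adhesions, rose by 0.66 (adjusted p = 6.37e-08) and SMAP2 by 0.56 (adjusted p = 1.55e-06). ACAP2, a GTPase-activating protein for ARF6 that also binds RAB35, rose by 0.46 (adjusted p = 0.0215). In the fit that held the RNA ratio ACAP2 differed by −0.16 (adjusted p = 0.467), and it also missed the threshold as the mean over its probe sets (0.22, adjusted p = 0.0661) and without 3D replicate 3 (0.41, adjusted p = 0.0513). Of 13 Arf exchange factors 1 rose and 3 fell. CYTH2, which loads ARF6, fell by 0.26 (adjusted p = 0.000150) and ARFGEF1, a Golgi exchange factor, by 0.19 (adjusted p = 0.0354). The ARFGEF1 call ended under 9 of 22 alternatives: the covariate, median centring, the mean over probe sets, and leaving out 3D replicate 1, 5 or 6 or 2D replicate 1, 3 or 4 (adjusted p up to 0.149). The exchange factor that passed as a rise, PSD4, lay at the control level on all 12 arrays, so no fold is given. Of 29 Arf effectors 6 rose and 4 fell. GGA2, a clathrin adaptor of the trans-Golgi network, fell by 0.92 (9.89 ± 0.15 in 3D and 10.81 ± 0.08 in 2D, SE 0.07, adjusted p = 1.95e-08), while COPZ2, a coat subunit, and KDELR3, a receptor that returns proteins to the endoplasmic reticulum, rose by 0.61 and 0.44 (KDELR3 by 0.18 as the mean over its probe sets). Of 10 Arf-like and Sar genes 2 rose and 3 fell, and the SAR1 paralogs, which both build the coat of vesicles leaving the endoplasmic reticulum, moved in opposite directions: SAR1A rose by 0.28 and SAR1B fell by 0.28, or by 0.18 as the mean over its probe sets. ARL6, which recruits the BBSome to cilia, fell by 0.34 (adjusted p = 5.05e-05).

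Because the RNA ratio differed between the groups, every member was also fitted with it as a covariate. Of the 25 members that had passed, 10 then missed the threshold without changing sign, and RAB8A and RAB23 changed sign without passing. With the covariate 11 members rose and 6 fell, and of all genes 20.9% passed. RALA (1.60), RAB27A (0.75), RAB25 (0.52), ARF6 (0.46), RAB11A (0.28) and RAB17 (−0.53) were among those that passed in the same direction. RAB15 (−0.29), RAB18 (−0.25), RAB3D (−0.30) and RAB8B (−0.56) passed only with the covariate, all lower in 3D. Of these, RAB15 had little signal over background, being at the control level on 5 of 6 3D arrays and all 6 2D arrays. The ratio and the culture form moved together, so their parts cannot be told apart by this fit.

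**Figure D5:**
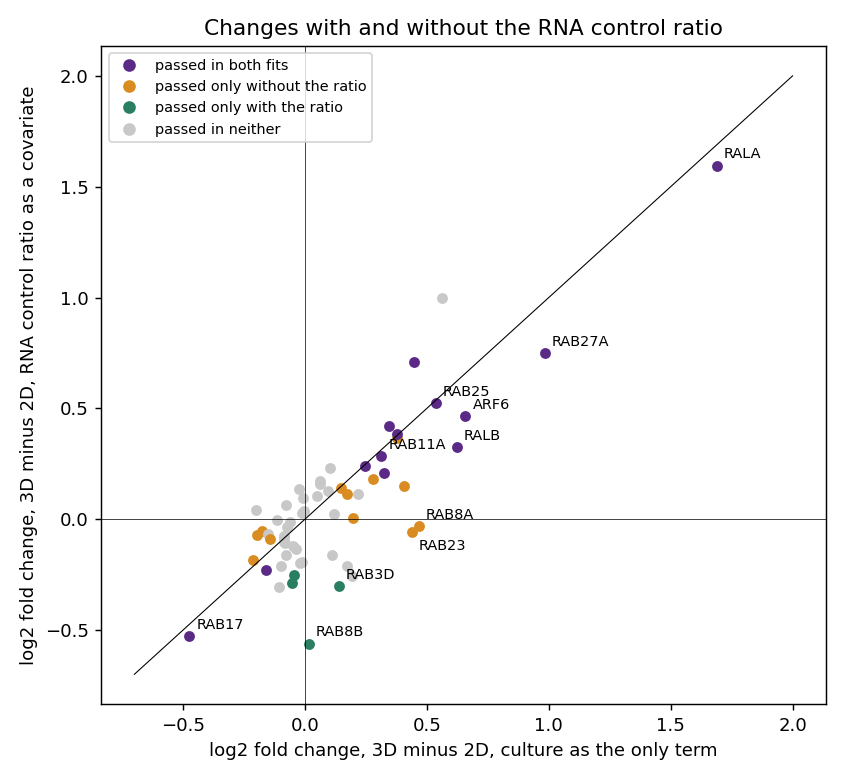
Log2 fold change, 3D over 2D, of the 61 members fitted with culture form alone (x axis) and with the 5′ to 3′ RNA ratio as a covariate (y axis). Purple points passed in both fits, orange ones only without the covariate, green ones only with it and grey ones in neither; RALA and RAB27A stay highest among those that passed both, at 1.60 and 0.75 with the covariate, while RAB8A and RAB23 drop to −0.03 and −0.06.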

How the data were processed

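Per the labels, biotin-labelled RNA of 12 pools was hybridised to dog Affymetrix arrays, 1 array each. The deposited values are linear intensities, 1 per probe set and array. The submitters' processing notes name GCRMA, which corrects background and summarises probes, with no version, and scaling after it is not stated in what was used here. Genes were named from the platform annotation, and 60 of the 61 member genes were found in RefSeq by identifier, with no symbol changed.

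The intensities were taken as log2(intensity + 1) without further normalization, filter or covariate, and the added 1 can only shrink a fold change. Groups were compared by limma's lmFit and eBayes (limma 3.58.1, R 4.3.3) with Benjamini-Hochberg adjustment over all genes, or over all 42924 probe sets for single probe sets. Depth has no meaning for arrays, and their number limits the precision. Simulated data held 50 changed probe sets at each size among 42924. Of these, 34% were recovered at a log2 fold change of 0.25, 96% at 0.5 and 100% at 1 and 2, with 9 false among 174 calls. In the real data 38.7% of probe sets passed, a far larger share than was changed in the simulation. The adjusted threshold therefore differed, and the recovery rates do not carry over to the real comparison.

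The members and lists were chosen with earlier results of these data known. All 12 values of a gene are printed, whole or as lowest, median and highest, for members that passed with a log2 fold change of at least 0.5 and for a list of polarity-related members; of each pathway list, up to 3 genes that passed are named, by size of change. Replicate numbers come from the sample titles, which name nothing shared by a number, and were not taken as pairs: deviations of same-numbered arrays correlated between 0.000836 and 0.36, and 3 of 6 pairs exceeded 0.1, where all were required to. Alternatives covered normalization, filter, pseudocount, variance prior, array weights, probe set choice, replicate block, RNA ratio and single arrays. A further 1 was added after seeing the data: leaving out pairs with a gene at the control level on all 12 arrays.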

Additional observations from a re-analysis of the deposited data

Results flagged for a closer look

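In each member gene and each group of 6 arrays, the highest and the lowest array were compared with their nearest neighbour by Dixon's test. Of 122 such groups 8 held an array far from the rest, and chance alone marks about 1 in 20. In 6 of the 8 the array was 3D replicate 2: ARF4 at 11.83, ARF3 at 12.12, RAB5A at 8.97, RAB23 at 7.44, RAB28 at 6.64 and RALB at 9.61. The other 3D arrays lay between 12.04 and 12.07 for ARF4, 11.999 and 12.02 for ARF3, 9.41 and 9.52 for RAB5A, 8.03 and 8.29 for RAB23, 6.88 and 7.003 for RAB28, and 9.95 and 10.05 for RALB. This array's 5′ to 3′ RNA ratio, −0.88, lay within the 2D range, and the part of that ratio in these values was not tested. The other 2 were RAB19 in 3D replicate 6, at 7.80 against 7.47 to 7.54, and RALB in 2D replicate 3, at 9.51 against 9.23 to 9.32.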

How the results depend on the processing

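Over 23 alternatives, 12 of the 25 members that passed (ARF6, RAB10, RAB11A, RAB1A, RAB20, RAB25, RAB27A, RAB29, RAB34, RAB6A, RALA and RALB) kept direction and threshold under each that gave them a value (RAB1A has none without probe sets ending in _s_at), while 13 lost the call at least once and 20 of the 36 others passed at least once. With the RNA ratio as a covariate, 11 members rose (19 without it), 17 member probe sets rose (38) and 12 fell (8), and 33 pathway genes rose (51) and 20 fell (32); of all genes 1907 rose and 1259 fell, so that 60.2% of calls were rises (46.3% without it). Among genes that passed in either fit, the direction turned with that covariate for RAB23 (−0.056), RAB8A (−0.033), RAB3D (−0.30, adjusted p = 0.0470), RAB8B (−0.56, adjusted p = 0.000500) and ACAP2 (−0.16); it also turned for ARF3, RAB4B, RAB5A, RAB5B, RAB27B, RAB31, RAB33A, RAB37 and RAB44, which passed in neither. Without probe sets ending in _s_at or _x_at, which leaves fewer to test, 22 member probe sets rose, 4 fell and 7 pairs differed (11 with them); RAB26 was at 0.017 and RAB8A at −0.18, both then at the control level, and RAB17 missed the threshold (−0.13, adjusted p = 0.0635). With the mean over a gene's probe sets ARF3 was at 0.19 (adjusted p = 0.000889), MICAL2 at −0.060, and RAB11B and RAB8A missed the threshold. Quantile normalization ended the calls of RAB19, RAB22A, RAB9A and RAB9B and gained RAB14, RAB30, RAB32, RAB4A and RAB7A. This gave 17 members raised and 9 lowered, with 2622 raised and 3405 lowered over all 15115 genes. Centring on the array median left 19 pathway genes lowered and moved the median of all genes to −0.03. The replicate numbers were not taken as pairs. With the replicate block 21 members rose and 7 fell, against 3055 and 3542 over all genes. No call was lost with the block, and RAB30, RAB42 and RAB5C were gained. Leaving out single arrays gave 18 to 22 members raised and 5 to 8 lowered, 33 to 44 member probe sets raised and 7 to 12 lowered, 47 to 59 pathway genes raised and 22 to 32 lowered, and 7 to 12 pairs, with 7 without 3D replicate 6. Across these single omissions, 36.4% to 47.2% of all genes passed. Without both 3D replicate 2 and 2D replicate 6, 21 members rose and 9 fell, against 3135 and 3870 over all genes. The pair test was not run with the block, the array weights, the variance prior or the covariate. Without pairs that held a gene at the control level on all 12 arrays, 9 of 21 differed. Members near the control level have little signal over background. The cause of these shifts was not tested.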
